A study of Mus musculus with 8 samples.

Results

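The 43 genes described here encode the enzymes that make, salvage and convert purine and pyrimidine nucleotides. They were chosen by name from the pathway, with earlier results of these data known, and grouped by step. All 43 are among the 18635 genes of the deposited table, and all 43 passed the filter of a mean of at least 10 normalized counts, so that each was tested. RNA was sequenced from bone marrow-derived macrophages (BMDMs) of C57BL/6 mice aged 6 to 8 weeks, differentiated for 7 days and exposed for 24 h to AE17-TCM, a tumor-conditioned medium collected from AE17 murine mesothelioma cells, to give tumor-educated macrophages (TEMs). The first group is *Phgdh* fl/fl TEMs, with both *Phgdh* alleles floxed and no Cre (n = 4, floxed TEMs below), and the second is *Phgdh* fl/fl *Cx3cr1*-Cre TEMs, with the same floxed alleles and Cre recombinase expressed from 1 *Cx3cr1* allele (n = 4, Cre TEMs below). The *Cx3cr1* promoter is active in monocytes and macrophages, and the study describes the genotypes as littermates. The submitters call the 4 samples of each genotype biological replicates. Both groups had AE17-TCM, there is no sample without it, and the Cre allele is carried by the Cre TEMs alone, so that *Phgdh* deletion and the Cre allele cannot be told apart.

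Cells obtain purine and pyrimidine nucleotides by building the rings from small precursors (de novo synthesis) or by recycling free bases and nucleosides (salvage). De novo purine synthesis needs glycine and one-carbon units carried on folate, both of which derive from serine, and thymidylate synthesis needs a folate one-carbon unit as well. *Phgdh* encodes phosphoglycerate dehydrogenase, the first enzyme of serine synthesis from glucose. Dividing cells raise the supply of deoxynucleotides during DNA replication, while differentiated macrophages are known for high levels of the phosphohydrolase SAMHD1, which breaks deoxynucleotides down.

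*Phgdh* (chr3:98313170-98339990) was at 119, 129, 117 and 105 normalized counts (read counts divided by the size factor of the sample) in replicates 1 to 4 of the floxed TEMs, and at 32.6, 35.3, 14.2 and 26.3 in those of the Cre TEMs. The gene fell from 117 ± 9.82 to 27.1 ± 9.39 normalized counts (mean ± SD, n = 4), without reaching 0 in any sample. The samples held between 38219563 and 47027420 reads on genes. The 8 macrophage markers examined were present in both genotypes. Of these, *Fcgr1*, *Itgam* and *Adgre1* fell (log2 fold changes -0.40, -0.19 and -0.08), *Mrc1* rose (0.28), and *Csf1r*, *Cd68*, *Lyz2* and *Mertk* did not pass the test described below. Their summed level, most of it from *Lyz2*, was 997251 to 1085916 normalized counts in the floxed TEMs and 986316 to 1061737 in the Cre TEMs. Of 42 markers of other cell types 17 were in the table. These were 5 of 7 fibroblast, 3 of 5 dendritic cell and 2 of 5 B cell markers. The rest were 3 of 9 T and NK cell, 3 of 9 neutrophil and progenitor, and 1 of 7 mesothelial and epithelial markers. Of those present, *Cd79b* of the B cell list fell, with a summed level of that list of 197 to 253 normalized counts in the floxed and 131 to 167 in the Cre TEMs, and *S100a8* of the neutrophil and progenitor list rose, with a summed level of 493 to 616 and 625 to 668. The 1 fibroblast and the 1 dendritic cell marker with enough counts for the test did not pass (log2 fold changes 0.64 and 0.79). Nor did the 3 T and NK cell markers. Summed levels in floxed and Cre TEMs were 30.4 to 42.4 and 27.0 to 56.4 (fibroblast list), and 7.24 to 29.6 and 25.9 to 41.7 (dendritic cell list). The part of all these cells in the results below was not tested. The first principal component (44.8% of the variance) separated the genotypes, with replicate 1 of the floxed TEMs nearest to the Cre TEMs at -14.0, where the other floxed samples lay between -21.25 and -20.04. The second (13.2%) set replicates 1 and 4 of both genotypes apart from replicates 2 and 3, and no label names a batch that matches this split.

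Most enzymes of nucleotide synthesis were lower in the Cre TEMs, each by a modest amount. At an adjusted p under 0.05 (limma on log2(normalized count + 1), Benjamini-Hochberg adjustment over the 13629 genes tested), 26 of the 43 genes fell, 2 rose (*Prps2* and *Xdh*) and 15 did not pass. The share that passed was 65.1%, where 41.0% of all genes tested passed. Lower calls made up 60.5% of the 43 genes against 20.3% of all genes, and higher calls 4.65% against 20.8%. The 43 genes were chosen with earlier results of these data known, so these shares describe the list and do not test it independently. The normalized counts of the genotypes did not overlap for 27 of the 43 genes (25 lower and 2 higher), 62.8% beside 36.7% of all genes. With 4 samples against 4, a gene without overlap reaches an exact two-sided permutation p of 0.0286, the smallest that this design allows. The median log2 fold change (Cre over floxed TEMs, on the log2(normalized count + 1) scale) was -0.14 for the 43 genes and -0.0018 for all genes tested. The 43 genes together took 0.269% to 0.271% of the reads in the floxed TEMs and 0.254% to 0.257% in the Cre TEMs, so that the 4 samples of each genotype stood apart. In bulk RNA, fewer cells that transcribe a gene and less of its RNA per cell cannot be told apart.

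By step, 10 of 12 genes of de novo purine synthesis fell and 1 rose, with a median of -0.15. Of the 7 genes of purine salvage and breakdown, 3 fell and 1 rose (median -0.11), and this median depended on single samples: it was -0.02 without replicate 1 of the Cre TEMs, -0.03 without replicate 3 of the floxed TEMs and -0.18 without replicate 1 of the floxed TEMs. Of the 5 genes of de novo pyrimidine synthesis, 3 fell and none rose (median -0.22). Pyrimidine salvage and breakdown had 1 of 5 genes lower, none higher and a median of 0.01, which was 0.06 without replicate 2 of either genotype. Deoxynucleotide supply had 6 of 10 lower and none higher (median -0.14), and the nucleotide kinases 3 of 4 lower and none higher (median -0.32). The median of the kinases rests on the low counts of *Nme2* and was -0.15 with a minimum mean of 100 normalized counts, which leaves *Nme2* out. Both de novo pathways together had 13 of 17 genes lower and 1 higher with a median of -0.16, and both salvage and breakdown groups 4 of 12 lower and 1 higher with a median of -0.02. Of all genes tested, 20.3% fell and 20.8% rose, 41.0% in either direction. The 5 of 12 genes called in the salvage and breakdown groups are near this last share. The 1 of 5 lower in pyrimidine salvage and breakdown is near the share of all genes that fell. The difference between these steps was not tested.

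**Figure D1:**
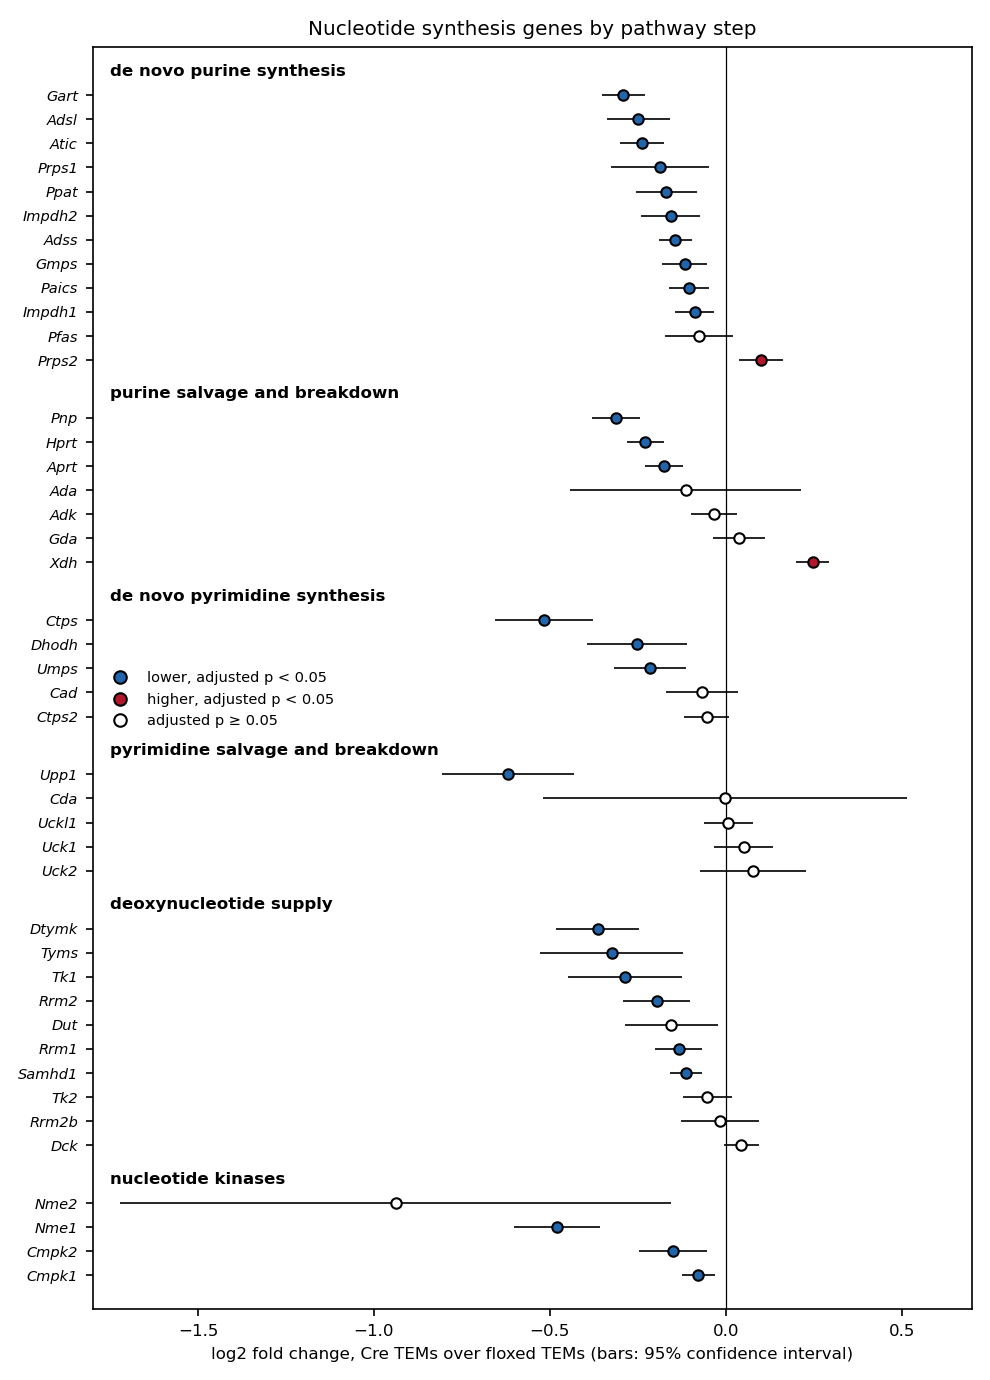
Log2 fold change of each of the 43 genes (x axis, Cre TEMs over floxed TEMs, with the 95% confidence interval as a bar), grouped by step (rows). Blue points are lower and red points higher at an adjusted p under 0.05 in limma, and white points did not pass. The 26 blue points run from -0.62 (*Upp1*) to -0.08 (*Cmpk1*), and *Xdh* is the highest at 0.25.

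The promoters of the genes, which their choice did not use, were searched for 3 kinds of motif. Promoter windows of 250 bases before to 50 bases after the transcription start (RefSeq, GRCm38.p6) were found for 39 of the 43 genes, all but *Pfas*, *Xdh*, *Dhodh* and *Rrm2b*. The E-box CACGTG, which reads the same on both strands and is bound by MYC and related factors, occurred in 6 of the 39 genes (15.4%) and in 8.09% of all 27025 genes with a window. These 6 genes, *Atic*, *Dtymk*, *Impdh2*, *Nme1*, *Paics* and *Tyms*, all passed as lower in the Cre TEMs, as did 26 of all 43. The 26 include 1 gene without a window, *Dhodh*, and most genes with a window were lower too. Their E-boxes are shown in capitals within 30 bases on the strand of the gene, to let the flanks be compared. The match lies 7 bases before the RefSeq start in *Atic*, 18 in *Nme1* (and 29 in its other window) and 61 in *Tyms*. It lies 110 bases before the RefSeq start in *Impdh2*, 148 in *Dtymk* and 203 in *Paics*. RefSeq starts can differ from the ends of the genes annotated by GENCODE, and the stretches of *Nme1* and *Impdh2* lie inside those annotated genes.
Atic (chr1:71557137-71557166, plus strand): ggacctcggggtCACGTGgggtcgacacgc
Nme1 (chr11:93968273-93968302, minus strand): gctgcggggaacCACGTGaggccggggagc
Tyms (chr5:30073669-30073698, minus strand): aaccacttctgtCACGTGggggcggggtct
Impdh2 (chr9:108560314-108560343, plus strand): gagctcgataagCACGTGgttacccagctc
Dtymk (chr1:93802065-93802094, minus strand): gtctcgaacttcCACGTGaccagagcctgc
Paics (chr5:76951087-76951116, plus strand): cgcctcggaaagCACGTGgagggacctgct
The flanks differ between the genes, and a match is a description of the letters, not evidence of a bound site. *Dtymk* and *Tyms* are the 2 genes of these whose 250 bases before the RefSeq start lie outside the annotated spans of all 43 genes. Exons of other genes were not searched for there. These 250 bases are given whole with the E-box in capitals.
Dtymk (chr1:93801935-93802184, minus strand): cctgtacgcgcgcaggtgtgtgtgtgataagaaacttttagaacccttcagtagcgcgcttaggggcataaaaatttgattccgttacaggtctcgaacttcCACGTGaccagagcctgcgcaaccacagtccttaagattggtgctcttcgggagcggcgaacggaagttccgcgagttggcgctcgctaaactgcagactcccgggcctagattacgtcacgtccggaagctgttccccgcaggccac
Tyms (chr5:30073626-30073875, minus strand): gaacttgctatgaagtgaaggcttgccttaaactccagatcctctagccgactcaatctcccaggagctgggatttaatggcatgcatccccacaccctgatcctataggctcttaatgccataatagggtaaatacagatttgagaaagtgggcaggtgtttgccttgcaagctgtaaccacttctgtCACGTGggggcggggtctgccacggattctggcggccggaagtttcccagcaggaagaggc
In both, the E-box is the only match to a searched motif. *Dtymk* and *Tyms* act one after the other in making thymidine nucleotides.

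The E2F motifs TTTCCCGC, TTTCGCGC, TTTGCCGC and TTTGGCGC, searched on both strands, occurred in the windows of *Ppat* and *Prps2*, 5.13% of the 39 genes and 2.61% of all genes with a window. *Ppat* fell and *Prps2* rose. *Ppat* holds a pair of matches, 211 and 158 bases before the start and on the opposite strand, and *Prps2* holds 1 that begins 33 bases after the start, shown in capitals within 30 bases.
Ppat, first match (chr5:76951771-76951800, minus strand): gagcagaccgcGCGGGAAAaaagggcagtg
Ppat, second match (chr5:76951718-76951747, minus strand): aggatcagaggGCGGGAAAgggaggtgcaa
Prps2 (chrX:167382700-167382729, minus strand): cctgctgctgcgtTTTCCCGCttcaccagc
A pair of GAAA separated by any 2 bases, as in interferon-stimulated response elements, occurred only in *Cmpk1* among the 39 genes (2.56%, and 3.99% of all genes with a window). *Cmpk2* had no such match in its window.

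De novo purine synthesis starts from phosphoribosyl pyrophosphate (PRPP), builds inosine monophosphate (IMP) on it, and splits towards AMP and GMP. The 4 largest changes of this step were in *Gart*, *Adsl*, *Atic* and *Prps1*, each lower by 12.3% to 18.3% in mean normalized count. *Gart* (chr16:91621186-91646952), whose protein carries out several of the ring-building reactions, had 2482, 2528, 2406 and 2541 normalized counts in the floxed TEMs and 2066, 1979.8, 2046 and 2045 in the Cre TEMs. All 4 Cre samples lay below all 4 floxed samples, and the log2 fold change was -0.29 (SE 0.03, adjusted p = 1.05e-07). *Gart* shares 19.7% of its exon bases with the antisense gene *Gm15964*, which had a mean of 50.02 normalized counts.

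*Adsl* (chr15:80948490-80970946), adenylosuccinate lyase, acts both before IMP and on the branch to AMP. Its normalized counts were 1196, 1121, 1179 and 1057 in the floxed TEMs and 992, 949.9, 941 and 943 in the Cre TEMs. The groups did not overlap, and 1 Cre sample stood above the other 3 (log2 fold change -0.25, adjusted p = 7.61e-05, limma). *Atic* (chr1:71557150-71579631) encodes the enzyme that closes the ring to IMP with a folate one-carbon unit. It was measured at 2754, 2569.8, 2618 and 2650.3 normalized counts in the floxed TEMs and at 2187, 2269.7, 2239.6 and 2278 in the Cre TEMs. Again no Cre sample reached the lowest floxed sample, with a log2 fold change of -0.24 (SE 0.03, adjusted p = 1.59e-06, limma).

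*Prps1* (chrX:140456613-140476140) and *Prps2* encode PRPP synthetases and moved in opposite directions. *Prps1* had 359, 387, 331 and 391 normalized counts in the floxed TEMs and 324, 325, 310.1 and 328 in the Cre TEMs. The groups came within 3.04 counts of each other without overlapping (log2 fold change -0.19, adjusted p = 0.0292, limma). The call was lost with DESeq2 on the recovered reads (adjusted p = 0.0534), with a trend on GC content and length taken off (adjusted p = 0.051), and without replicate 2 or 4 of the floxed TEMs or replicate 3 of the Cre TEMs (adjusted p = 0.0855, 0.0994 and 0.0775, limma). *Prps2* (chrX:167346322-167382749), the more abundant of the pair, was at 2309 ± 52.1 normalized counts in the floxed TEMs and 2476 ± 60.9 in the Cre TEMs, a log2 fold change of 0.10 (adjusted p = 0.00983). It was the only gene of this step that rose.

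The first committed enzyme, encoded by *Ppat* (chr5:76913249-76951578), fell by 11.1% in mean normalized count (log2 fold change -0.17, adjusted p = 0.0025). *Paics* (chr5:76951307-76967509), which encodes an enzyme of the middle of the pathway and lies head to head with *Ppat*, fell by 6.93% (log2 fold change -0.10, adjusted p = 0.00356), and the highest Cre sample at 6705 overlapped the floxed TEMs, whose lowest sample was at 6686. *Ppat* and *Paics* share 272 bases of exon on opposite strands, and whether the reads were counted by strand is not given in the sources used here. *Pfas*, which encodes another of the ring-building enzymes, was at 844 ± 44.0 and 801 ± 31.6 normalized counts and did not pass (log2 fold change -0.08, 95% confidence interval -0.17 to 0.02).

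Downstream of IMP, *Impdh1* and *Impdh2* encode the IMP dehydrogenases and *Gmps* the GMP synthetase of the guanine branch, and *Adss* encodes adenylosuccinate synthase of the adenine branch. All 4 fell, with log2 fold changes of -0.16 for *Impdh2*, -0.14 for *Adss*, -0.12 for *Gmps* and -0.09 for *Impdh1*, and adjusted p-values between 2.5e-05 (*Adss*) and 0.0119 (*Impdh1*, limma). The call of *Impdh1* was lost without the mean-variance trend (adjusted p = 0.0526, limma). *Adss* carried the highest counts of these, 7922 ± 144 in the floxed TEMs and 7168 ± 63.8 in the Cre TEMs. *Impdh2* has a pseudogene with 99.7% identity and *Gmps* has 2 of up to 99.3%, and reads that fit both a gene and such a copy cannot be assigned with certainty.

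In purine salvage, the transferases that rebuild nucleotides from free bases fell, and the enzyme that oxidises purines to uric acid rose. *Hprt* (chrX:52988137-53021659), which recycles hypoxanthine and guanine, was measured at 13499.7, 14179.7, 14711 and 14435 normalized counts in the floxed TEMs and 11995, 12017, 12456 and 12007 in the Cre TEMs. Every Cre sample lay at least 1043 counts below the lowest floxed sample (log2 fold change -0.23, SE 0.03, adjusted p = 3.6e-07, limma). *Aprt* (chr8:122574635-122576909), which recycles adenine, had 4184, 4238, 4148 and 4379 in the floxed TEMs and 3837, 3686, 3698 and 3787 in the Cre TEMs. Its groups did not overlap either, with a log2 fold change of -0.18 (adjusted p = 1.65e-05).

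*Pnp* (chr14:50931082-50965237), purine nucleoside phosphorylase, splits inosine and guanosine into base and sugar. Its normalized counts were 1951, 1886, 2016 and 2003 in the floxed TEMs and 1583, 1571, 1553 and 1621 in the Cre TEMs, a mean 19.4% lower and a log2 fold change of -0.31 (SE 0.03, adjusted p = 1.37e-07, limma). The ranges of the genotypes were 265 counts apart. The annotation places *Gm49342* on 18.04% of the *Pnp* exon bases on the same strand.

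*Xdh* (chr17:73883895-73950196), xanthine dehydrogenase, catalyses the last steps of purine breakdown. It was at 8519, 8183, 8333 and 8303 normalized counts in the floxed TEMs and at 9718, 9854, 9977 and 10013 in the Cre TEMs. All Cre samples exceeded all floxed samples, with a log2 fold change of 0.25 (SE 0.02, adjusted p = 1.62e-08), the largest rise among the 43 genes. The 3 other genes of this step did not pass. *Adk*, adenosine kinase, had a log2 fold change of -0.03 (95% confidence interval -0.10 to 0.03), *Gda*, guanine deaminase, of 0.04 (-0.04 to 0.11), and *Ada*, adenosine deaminase, of -0.11 (-0.44 to 0.21). *Ada* was low, at 74.98 ± 15.04 and 69.0 ± 11.2 normalized counts, and its interval is correspondingly wide.

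De novo pyrimidine synthesis makes uridine monophosphate (UMP) through CAD, DHODH and UMPS, and the CTP synthetases turn UTP into CTP. *Ctps* (chr4:120539868-120570276), the CTP synthetase known for its role in lymphocyte proliferation, had 436, 429, 459 and 383 normalized counts in the floxed TEMs and 298, 277, 303 and 311 in the Cre TEMs. The highest Cre sample was 71.4 counts below the lowest floxed sample, and the gene fell by 30.3% in mean (log2 fold change -0.52, SE 0.07, adjusted p = 2.66e-06, limma). *Ctps2* (chrX:162901238-163032508), its X-linked paralog, had 2979 ± 117 in the floxed TEMs and 2867 ± 42.5 in the Cre TEMs and did not pass (log2 fold change -0.05, 95% confidence interval -0.12 to 0.01). It passed without replicate 1 of the floxed TEMs (adjusted p = 0.0244, limma) and with a trend on GC content and length taken off (adjusted p = 0.0174). *Ctps* has 2 close pseudogenes of up to 96.7% identity.

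*Dhodh* (chr8:109591343-109608673), the mitochondrial dehydrogenase of the pathway, was measured at 340.3, 339.6, 378 and 342 normalized counts in the floxed TEMs and 278, 297, 281 and 319 in the Cre TEMs. The groups did not overlap (log2 fold change -0.25, adjusted p = 0.00511), with replicate 3 the highest of the floxed samples. *Umps* (chr16:33954782-33967038), which completes UMP, had 733, 821, 759.8 and 757 in the floxed TEMs and 656, 624, 682 and 682 in the Cre TEMs. It was lower in every Cre sample than in any floxed sample (log2 fold change -0.22, adjusted p = 0.00122, limma). *Cad* (chr5:31054780-31078479), encoding the multifunctional protein of the first reactions, had 553, 584, 609.9 and 588 in the floxed TEMs and 555, 563, 555 and 554 in the Cre TEMs. Replicate 1 of the floxed TEMs was as low as the Cre samples, and the difference did not pass (log2 fold change -0.07, 95% confidence interval -0.17 to 0.04).

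In pyrimidine salvage and breakdown, *Upp1* alone passed, 1 of 5 genes, where 20.3% of all genes tested fell. *Upp1* (chr11:9118103-9136170), uridine phosphorylase, splits uridine into uracil and ribose phosphate. Its normalized counts were 328, 409, 290.5 and 349 in the floxed TEMs and 244, 229, 215 and 203 in the Cre TEMs. The floxed samples spread widely, and still none came as low as the highest Cre sample. With a mean 35.3% lower and a log2 fold change of -0.62 (SE 0.09, adjusted p = 1.12e-05, limma), it was the most strongly lowered of the 43 genes that passed. The uridine-cytidine kinases, which return these nucleosides to nucleotides, showed overlapping groups. *Uck2* (chr1:167222883-167285320) had 253, 248, 250.2 and 278 normalized counts in the floxed TEMs and 252, 267, 283 and 283 in the Cre TEMs (log2 fold change 0.08, 95% confidence interval -0.07 to 0.23). *Uck1* (chr2:32255002-32260159) had 914, 938, 889 and 892 in the floxed TEMs and 968, 915, 916 and 966 in the Cre TEMs (log2 fold change 0.05, -0.03 to 0.14). For *Uckl1* (chr2:181569149-181584892) the values were 1919.8, 1961, 1918 and 2067 in the floxed TEMs and 2037, 1948, 1916 and 2005 in the Cre TEMs (log2 fold change 0.01, -0.06 to 0.08), an interval that holds only small differences. *Cda*, cytidine deaminase, was at 23.9 ± 6.37 and 23.7 ± 5.41 normalized counts, too few to tell any but large differences (95% confidence interval -0.52 to 0.52). *Uck1* has 2 close pseudogenes of up to 99.3% identity.

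**Figure D2:**
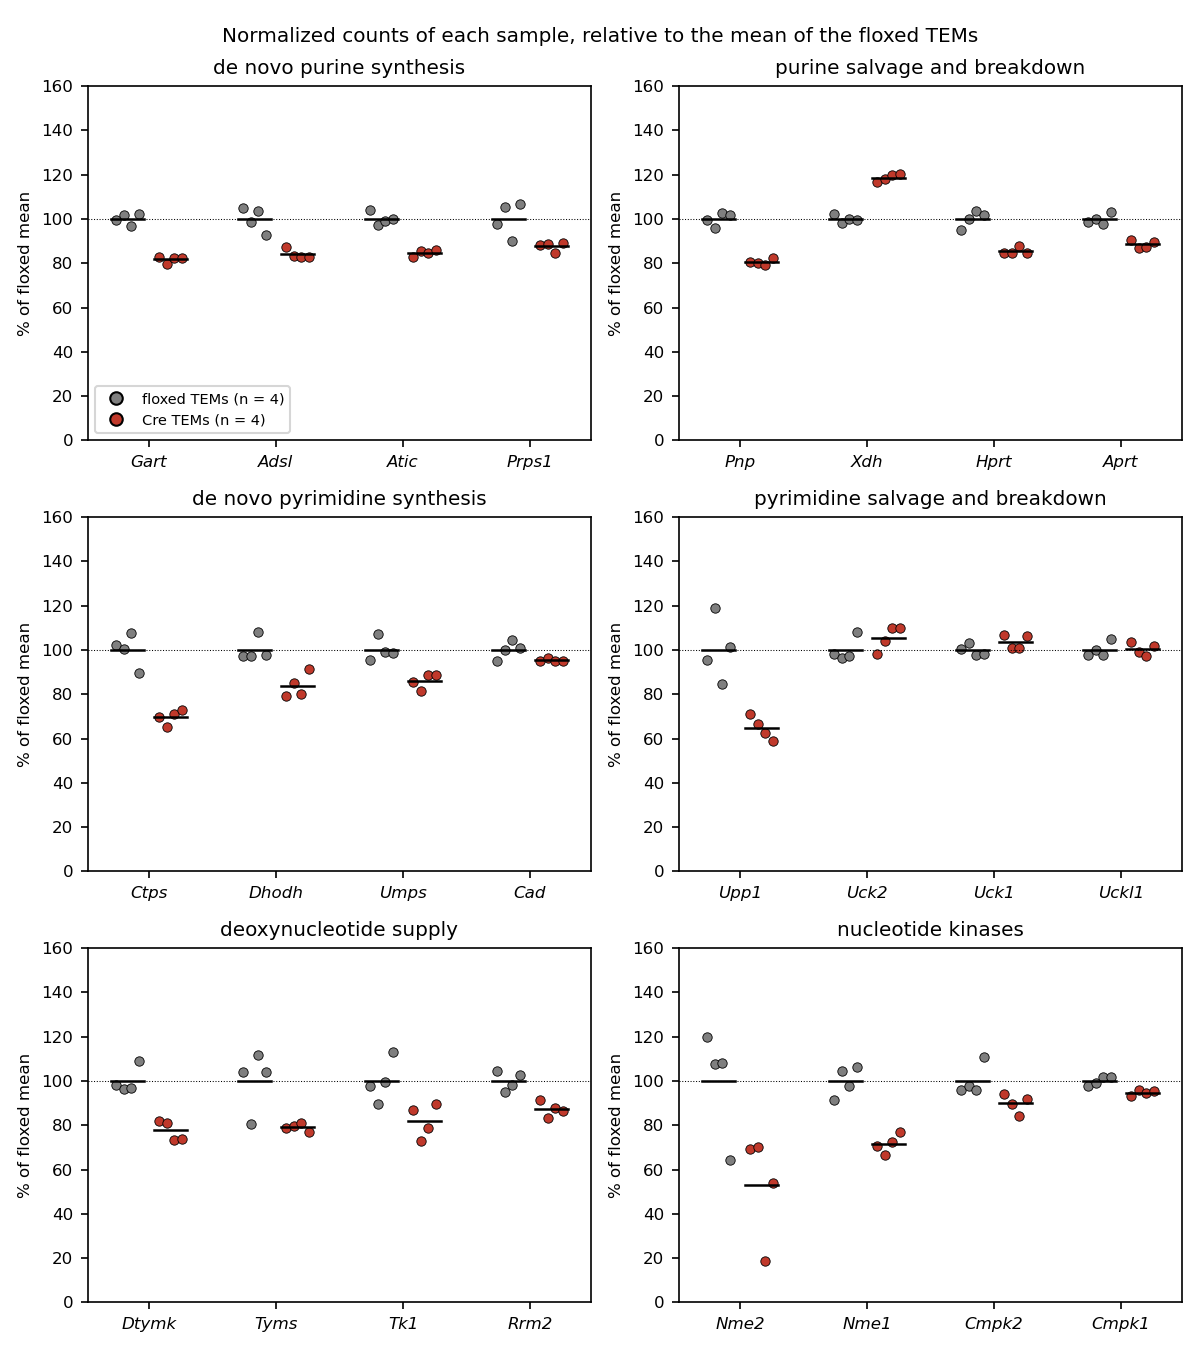
Normalized counts of each sample as a percentage of the mean of the floxed TEMs (y axis from 0), for the 4 genes of each step with the largest absolute log2 fold change (x axis), with grey points for the 4 floxed TEMs, red points for the 4 Cre TEMs and a line at each mean. The Cre samples of *Gart*, *Pnp*, *Ctps*, *Upp1*, *Dtymk* and *Nme1* lie below every floxed sample and those of *Xdh* above, while those of *Cad*, *Uck1*, *Uck2* and *Uckl1* mix with the floxed samples.

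Deoxynucleotides are made from ribonucleotides by ribonucleotide reductase, and the thymidine nucleotide has its own enzymes. The thymidylate genes carried the 3 largest changes of this step. *Dtymk* (chr1:93792576-93801934), thymidylate kinase, whose promoter is printed whole, had 616, 605, 607 and 683 normalized counts in the floxed TEMs and 515, 509, 462 and 464 in the Cre TEMs. The groups were 89.4 counts apart (log2 fold change -0.36, SE 0.06, adjusted p = 2.38e-05, limma). *Tyms* (chr5:30058202-30073617), thymidylate synthase, which takes its methyl group from folate, had 207, 160.2, 222 and 207 in the floxed TEMs and 156, 159, 162 and 154 in the Cre TEMs. The gene passed (log2 fold change -0.32, adjusted p = 0.0109), although replicate 2 of the floxed TEMs lay within the range of the Cre TEMs. It has 4 close pseudogenes of up to 94.0% identity. *Tk1* (chr11:117815526-117826092), the cytosolic thymidine kinase of dividing cells, was measured at 389.5, 358, 397 and 450.3 in the floxed TEMs and at 347, 290.0, 313 and 358 in the Cre TEMs. The highest Cre sample lay only 0.138 counts below the lowest floxed sample (log2 fold change -0.29, adjusted p = 0.0052).

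Of the 3 subunits of ribonucleotide reductase, 2 fell. *Rrm2* (chr12:24708241-24714146), the small subunit of dividing cells, had 925, 838, 866 and 908 normalized counts in the floxed TEMs and 808, 736, 777 and 765 in the Cre TEMs. Every Cre sample was below every floxed sample (log2 fold change -0.20, adjusted p = 0.00146). *Rrm1*, the large subunit, fell from 2900.0 ± 144 to 2639.8 ± 24.4 normalized counts (log2 fold change -0.13, adjusted p = 0.0022). *Rrm2b*, the small subunit induced by p53, was at 721 ± 52.4 and 713 ± 31.2 and did not pass (log2 fold change -0.02, 95% confidence interval -0.13 to 0.10).

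*Samhd1*, the most abundant of this step by count, fell from 17249 ± 324 to 15947 ± 129 normalized counts (log2 fold change -0.11, adjusted p = 0.000189, limma), and its groups did not overlap. *Dut*, the enzyme that keeps uracil out of DNA by hydrolysing dUTP, had groups that did not overlap (377 ± 20.05 in the floxed and 339 ± 15.2 in the Cre TEMs) and an adjusted p of 0.0558, just outside the threshold (log2 fold change -0.16, 95% confidence interval -0.29 to -0.02). *Dut* passed in 4 of 19 alternatives, among them without replicate 1 of the floxed TEMs (adjusted p = 0.0323, limma). The salvage kinases *Dck*, for deoxycytidine, and *Tk2*, for mitochondrial thymidine, did not pass, with log2 fold changes of 0.04 (-0.01 to 0.09) and -0.05 (-0.12 to 0.02).

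The nucleotide kinases pass phosphates between nucleotides. *Nme1* (chr11:93956979-93968521), a nucleoside diphosphate kinase, has an E-box just before its RefSeq starts. It had 606, 695, 650.2 and 705 normalized counts in the floxed TEMs and 469, 442, 481 and 512 in the Cre TEMs. The groups were 94.6 counts apart, and the mean was 28.3% lower (log2 fold change -0.48, SE 0.06, adjusted p = 1.18e-06, limma). *Nme2* (chr11:93949814-93956259), which lies next to it, was barely counted, at 19.5, 17.5, 17.6 and 10.5 in the floxed TEMs and 11.3, 11.4, 3.05 and 8.75 in the Cre TEMs. Its groups overlapped and it did not pass (log2 fold change -0.94, 95% confidence interval -1.72 to -0.15, adjusted p = 0.0515), whereas edgeR on the recovered reads gave an adjusted p of 0.0427, and limma gave 0.033 without replicate 4 of the floxed TEMs and 0.0397 without replicate 1 or 2 of the Cre TEMs. The annotated readthrough gene *Gm20390* covers 48.9% of the exon bases of *Nme2* and 12.5% of those of *Nme1*, and *Nme2* has 3 close pseudogenes of up to 97.8% identity. Their part in the low count of *Nme2* was not tested.

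*Cmpk1* (chr4:114959336-114987241), the kinase of UMP and CMP, had 8308, 8418, 8634 and 8644 normalized counts in the floxed TEMs and 7918, 8140.5, 8032 and 8127 in the Cre TEMs. The difference was small and the groups did not overlap (log2 fold change -0.08, adjusted p = 0.00905). *Cmpk2* (chr12:26469204-26479837), its mitochondrial counterpart and an interferon-induced gene, had 1328, 1351, 1326 and 1535 in the floxed TEMs and 1304, 1239.8, 1168 and 1272 in the Cre TEMs. Replicate 4 of the floxed TEMs was the highest, and the call (log2 fold change -0.15, adjusted p = 0.0123) was lost without it (adjusted p = 0.0664), without replicate 3 of the Cre TEMs (0.0553) and without the mean-variance trend (0.0797, limma). Its neighbour *Rsad2*, another interferon-induced gene, moved the other way with a log2 fold change of 0.21, though its groups overlapped. Of the 21 interferon-stimulated genes described below, 8 fell and 2 rose.

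Compared per length of exon, the 43 genes covered a wide range of levels. These levels are FPKM computed from the recovered reads, that is reads per kilobase of exon scaled to the total reads of the sample. *Hprt* was the highest at 254 ± 8.90 FPKM in the floxed TEMs and 219 ± 4.35 in the Cre TEMs (mean ± SD, n = 4). *Aprt*, *Cmpk1*, *Paics* and *Samhd1* followed at 60.5 ± 1.44, 57.4 ± 1.02, 50.5 ± 1.03 and 43.5 ± 0.850 FPKM in the floxed TEMs. In this order each gene lay above the next by more than its SD. At the low end were *Ada* at 0.864 ± 0.172, *Tyms* at 0.755 ± 0.102, *Cda* at 0.533 ± 0.142 and *Nme2* at 0.321 ± 0.0784 FPKM, where each gene overlapped the next within 1 SD. Of the de novo pyrimidine genes, *Ctps2* (14.6 ± 0.559 FPKM) was well above *Umps*, *Ctps*, *Cad* and *Dhodh*, which ranged from 5.08 ± 0.251 to 1.28 ± 0.0674 FPKM.

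**Figure D3:**
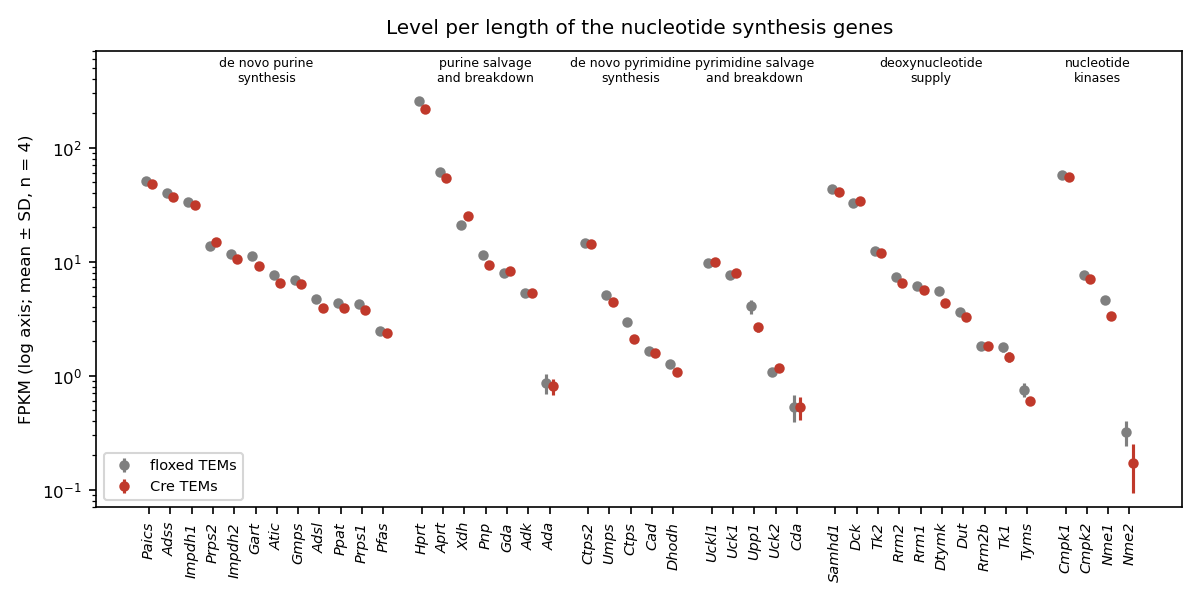
Level per length of the 43 genes (y axis, FPKM on a log axis; points are means and bars SDs of 4 samples), ordered within each step by the level in the floxed TEMs (x axis), in grey for the floxed and red for the Cre TEMs. *Hprt* stands at the top at 254 ± 8.90 FPKM and *Nme2* at the bottom at 0.321 ± 0.0784 FPKM in the floxed TEMs.

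For enzymes with a paralog of the same reaction, the balance within a pair was compared in each sample as a ratio of FPKM. The ratios were not tested, because they use the counts described above. Of 7 pairs, 2 had ratios that did not overlap between the genotypes. Among single genes, 36.7% of all genes tested had groups that did not overlap, so 2 of 7 is not an unusual share. *Ctps2* over *Ctps* was 4.56, 4.94, 4.54 and 5.71 in the floxed TEMs (4.93 ± 0.548) and 6.77, 7.24, 6.53 and 6.59 in the Cre TEMs (6.78 ± 0.323), so that each Cre sample lay above each floxed sample. *Prps2* over *Prps1* was 3.34, 2.997, 3.54 and 3.12 in the floxed TEMs (3.25 ± 0.241) and 4.01, 4.00, 4.05 and 3.78 in the Cre TEMs (3.96 ± 0.121). *Prps1* itself lost its call in 5 of 19 alternatives. The ratios of *Impdh1* to *Impdh2*, *Uck1* to *Uck2*, *Tk2* to *Tk1*, *Rrm2* to *Rrm2b* and *Cmpk1* to *Cmpk2* overlapped, with means of 2.85, 7.04, 6.99, 4.06 and 7.49 in the floxed TEMs and 2.99, 6.91, 8.24, 3.57 and 7.88 in the Cre TEMs.

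**Figure D4:**
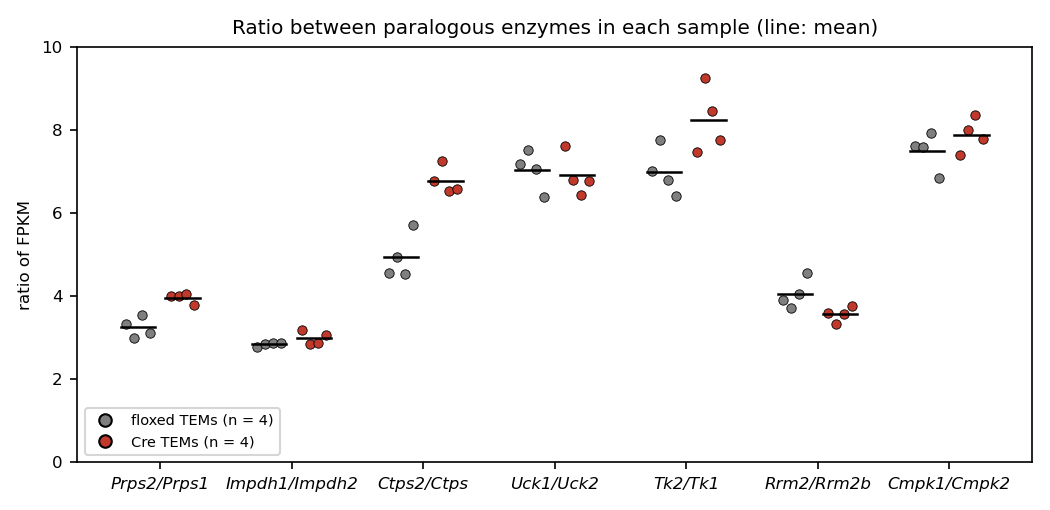
Ratio of FPKM between paralogous enzymes (y axis, from 0) in each sample for 7 pairs (x axis), in grey for the 4 floxed and red for the 4 Cre TEMs, with a line at each mean. *Ctps2*/*Ctps* (means 4.93 and 6.78) and *Prps2*/*Prps1* (3.25 and 3.96) are the pairs in which every Cre sample lies above every floxed sample.

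The 43 genes lie on 17 chromosomes, 4 of them on the X chromosome. At least 1 pseudogene of close sequence is annotated for 11 of the 43 genes, which are *Paics*, *Impdh2*, *Gmps*, *Ctps*, *Uck1*, *Tk1*, *Tyms*, *Rrm2*, *Rrm2b*, *Cmpk1* and *Nme2*. *Gmps*, 34.3 Mb from *Phgdh* on chromosome 3, and *Impdh2*, 11.3 Mb from *Cx3cr1* on chromosome 9, are those on the chromosomes of the altered loci. The median GC content of the longest transcript was 48.3% for the genes that fell and 53.02% for those that did not pass, and 49.2% for all genes tested. With a trend on GC content and transcript length taken off, an alternative added after the data were seen, 29 of the 43 genes fell in place of 26, and over all genes tested 3366 fell and 2168 rose, in place of 2764 and 2830.

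The genes around this pathway did not all follow it. For comparison, 20.3% of all genes tested fell and 20.8% rose, and the lists were not tested as sets. Of 33 other enzymes of nucleotide metabolism that were tested, 10 fell and 6 rose (median -0.10), not far from these shares. *Dctd*, deoxycytidylate deaminase, which feeds thymidylate synthesis, fell with a log2 fold change of -0.72 (adjusted p = 0.000119, limma), and *Ak4*, a mitochondrial adenylate kinase, with one of -0.49 (adjusted p = 1.03e-07). *Entpd1*, the ectoenzyme CD39 that hydrolyses extracellular ATP, rose with a log2 fold change of 0.46 (adjusted p = 1.66e-10), and *Uprt*, whose product resembles the uracil phosphoribosyltransferase of microbes, with one of 0.37 (adjusted p = 0.000459). Of 12 folate one-carbon enzymes, 5 fell and 2 rose (median -0.07). The log2 fold change was -0.25 for *Shmt2*, the mitochondrial serine hydroxymethyltransferase, and -0.17 for *Mthfd1l*, which makes formate in mitochondria, while *Mtr*, methionine synthase, rose (0.15). Of 7 nucleoside and nucleotide carriers (median 0.08) none passed as lower and 3 passed as higher, the nucleoside carriers *Slc29a3* (0.23), *Slc29a1* (0.18) and *Slc28a2* (0.11). The largest change of this list was a decrease just outside the threshold, in *Slc29a2* (-0.32, 95% confidence interval -0.60 to -0.05, adjusted p = 0.0557, limma).

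DNA replication genes moved in the direction of the deoxynucleotide genes, and mitosis genes did not. Of 33 replication genes, 25 fell and 1 rose (median -0.25), led by *Mcm5* (-0.49), *Cdc6* (-0.48), *Mcm6* (-0.44) and *Uhrf1* (-0.44), the first 3 of which encode subunits of the replicative helicase or load it. Of 20 mitosis genes none fell and 12 rose (median 0.17), led by *Mki67* (0.55), *Cenpf* (0.54), *Ube2c* (0.52) and *Ccnb1* (0.34). Over all genes tested, 20.3% fell and 20.8% rose. The summed level of the replication genes was 56554 to 58181 normalized counts in the floxed and 46724 to 47243 in the Cre TEMs, and that of the mitosis genes 11490.3 to 12463 and 13591 to 14945. Neither range overlapped between the genotypes. The part of the cell cycle in the values of the 43 genes was not tested.

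Among 21 interferon-stimulated genes, 8 fell and 2 rose (median -0.06), with *Oas1a* and *Oas2* at -0.25 and *Oasl2* at -0.23. Their summed levels overlapped between the genotypes, at 76503 to 78797 and 73635 to 77637 normalized counts. Of 16 p53 targets, 4 fell and 8 rose (median 0.12), with *Eda2r* at 0.91, *Gdf15* at 0.65, *Trp53inp1* at 0.39 and *Bbc3* at 0.29. The counts of both lists stand beside 20.3% of all genes tested that fell and 20.8% that rose. *Rrm2b*, the p53-induced subunit described above, had a log2 fold change of -0.02.

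**Figure D5:**
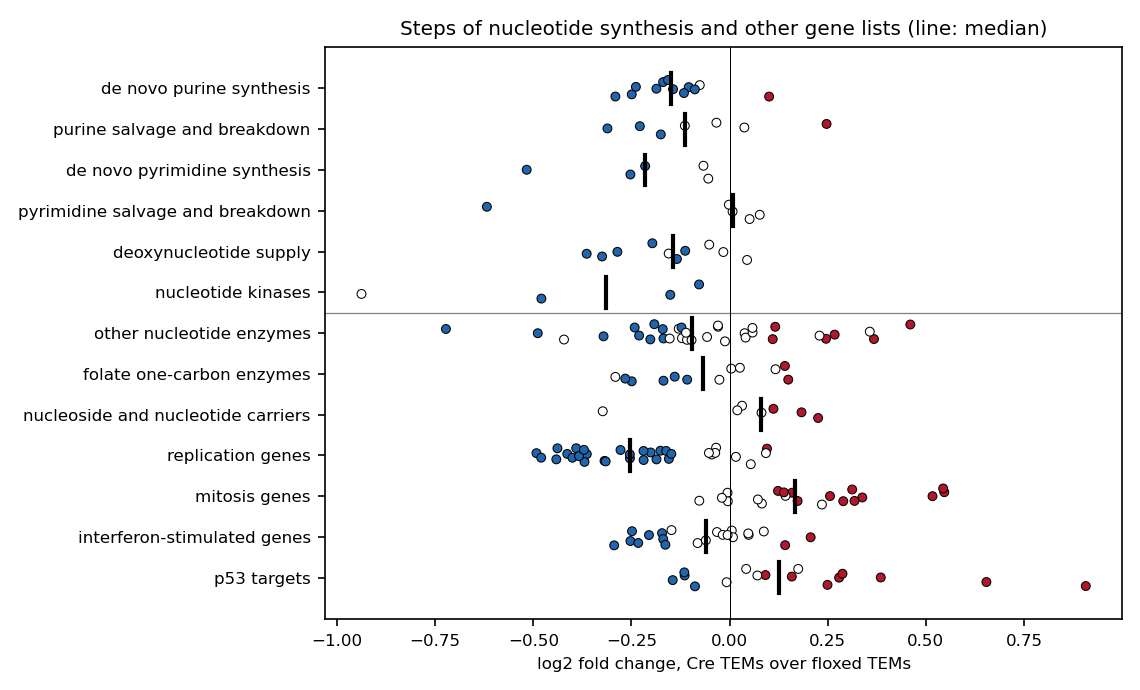
Log2 fold change of each gene (x axis, Cre TEMs over floxed TEMs) in the 6 steps of nucleotide synthesis (above the grey line) and in 7 other lists (below it), with a black line at the median of each list. Blue points fell and red points rose at an adjusted p under 0.05 in limma, and white points did not pass. The medians run from -0.32 for the nucleotide kinases (-0.15 without the rarely counted *Nme2*) to 0.17 for the mitosis genes.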

How the data were processed

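RNA of 4 *Phgdh* fl/fl and 4 *Phgdh* fl/fl *Cx3cr1*-Cre samples was sequenced as single reads of 75 bp from a directional kit. The authors aligned the reads to mm10 (TopHat2) and obtained a count per gene from HTSeq 0.6, whose strand setting is not given in the sources used here. The signal the authors deposited per gene and sample is the read count divided by a size factor of the sample, although the paper names FPKM. Whole reads were recovered for 100% of the 144353 values above 0 (tolerance 0.01 reads). The authors' comparison columns (mean, fold change, its error, test statistic and p-values) were not used.

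Genotypes were taken from the labels. The main test was limma 3.58.1 under R 4.3.3, with eBayes and a mean-variance trend, two-sided and without covariates, on log2(normalized count + 1) over genes with a mean of at least 10, with Benjamini-Hochberg adjustment over 13629 genes. Single genes were also tested by exact permutation. Alternatives were edgeR 4.0.16 (quasi-likelihood) and DESeq2 1.42.0 on recovered reads, a pseudocount of 0.1, no filter or a minimum of 100, quantile normalization, scaling to total reads, eBayes without trend, a replicate block, and leaving out each sample. A term for replicates 1 and 4 against 2 and 3, and a trend on GC content and length taken off, were added after the data were seen. The fits of limma, edgeR and DESeq2, and no other part of the processing, were tried on simulated counts with known fold changes. Positions, exon lengths and transcript GC content came from GENCODE M21 on mm10, promoters from RefSeq on GRCm38.p6, and pseudogenes of at least 90% identity over at least 200 bases from blastn 2.17.0. The depth of 38219563 to 47027420 reads limits only genes of few reads. In each of the 6 steps, the 4 genes with the largest absolute log2 fold change are given sample by sample, the others by mean and fold change. Of each other list, up to 4 genes that passed are named by the same order. Some items of these lists are counted but not reported here by name. The 43 genes and all lists were chosen with earlier results of these data known. The correlation between the deviations of same-numbered samples was 0.0628 to 0.126, and the numbers were not taken as pairs.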

Additional observations from a re-analysis of the deposited data

Results flagged for a closer look

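In 7 of the 88 groups of 4 samples examined, 1 sample lay so far from the other 3 that its gap divided by the whole range exceeded Dixon's 95% critical value for 4 samples. Chance gives about 1 such group in 20. All 7 were the highest sample of the group. In the Cre TEMs these were *Adsl* in replicate 1 (992 normalized counts against 941 to 949.9, ratio 0.833), *Hprt* in replicate 3 (12456 against 11995 to 12017, ratio 0.953) and *Cad* in replicate 2 (563 against 554 to 555, ratio 0.92). In the floxed TEMs these were *Dhodh* in replicate 3 (378 against 339.6 to 342, ratio 0.95), *Dtymk* in replicate 4 (683 against 605 to 616, ratio 0.851), *Samhd1* in replicate 2 (17733 against 17060.3 to 17136, ratio 0.888) and *Cmpk2* in replicate 4 (1535 against 1326 to 1351, ratio 0.881). *Adsl*, *Hprt*, *Dhodh*, *Dtymk* and *Samhd1* remained lower in the Cre TEMs at an adjusted p under 0.05 (limma) without any one sample, and *Cmpk2* did not.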

How the results depend on the processing

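Over 19 alternatives, 25 of the 28 called genes kept their direction and their call, and none reversed. *Prps1*, *Cmpk2* and *Impdh1* lost the call in 5, 3 and 1 of them. *Nme2*, *Dut* and *Ctps2* gained one in 5, 4 and 2, and *Cad*, *Pfas* and *Adk* in 1, the trend on GC content and length taken off. The number of the 43 genes that fell ranged from 24 (without replicate 3 of the Cre TEMs) to 29 (that trend taken off), with 27 in edgeR and 25 in DESeq2. The median log2 fold change of the 43 genes moved from -0.1442 to -0.1291 with scaling to total reads, to -0.1663 with the trend taken off, and between -0.1594 (without replicate 2 of the floxed TEMs) and -0.1293 (without replicate 3 of the floxed TEMs) when single samples were left out. With the trend taken off, 5 of 5 genes of de novo pyrimidine synthesis fell in place of 3. Over all genes the calls ranged from 4930 to 5917 against 5594. With the replicate number as a block, 27 of the 43 genes fell, *Nme2* passing at an adjusted p of 0.0478 (limma), and 5597 of all genes were called. The same-numbered samples are not known to share an origin, and 5 of 8 samples correlated best with their own number. A term for replicates 1 and 4 against 2 and 3 left 26 genes lower. Depth limits *Nme2*, *Cda* and *Ada*, whose confidence intervals are wide.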
